A study of Mus musculus with 6 samples.

Results

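The mitochondrial solute carriers of the Slc25 family were compared between prostates of OSU-CG5-treated and vehicle-treated TRAMP mice. Members were all genes for which the array annotation gave a single symbol beginning with Slc25a, which found 44 of the 18193 genes with a single symbol, on 93 of 45037 probe sets. Where a gene had several probe sets, the one with the highest mean over the 6 arrays stood for it, and this mean was the only measured value used in the choice. The OSU-CG5 group was 3 intact male TRAMP mice dosed by oral gavage at 100 mg/kg per day for 4 weeks, from 6 to 10 weeks of age, and the vehicle group was 3 such mice given vehicle over the same weeks. All mice had the genotype (C57BL/6 TRAMP x FvB) F1. As background, the TRAMP transgene expresses the SV40 T antigens under the probasin promoter, which is active in prostate epithelium, so every sample came from transgene-bearing prostate. OSU-CG5 is named here by its code, and earlier reports class it among agents that mimic energy restriction. RNA came from the dissected dorsal and lateral prostate lobes, taken about 2 to 4 h after the last dose, with 1 Affymetrix array per mouse and 3 arrays per group.

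Slc25 proteins are small membrane proteins encoded in the nucleus, and most sit in the inner mitochondrial membrane. They are made in the cytosol, pass the outer membrane through the TOM complex and are inserted into the inner membrane by the TIM22 complex with its small Tim chaperones. Most carry a defined kind of solute, such as ADP and ATP, phosphate, citrate, aspartate, carnitine esters, coenzyme A or glutathione. Prostate epithelium is known for making and secreting citrate, a metabolite that crosses the inner membrane through a member of this family.

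The arrays were not equally alike, and marker levels of other cell types differed between them. Vehicle replicate 2 had Pearson correlations of 0.966 to 0.981 with the other arrays, and all other pairs reached at most 0.995. On the first principal component, with 60.4% of the variance, it scored 85.6, whereas the OSU-CG5 arrays scored between -34.8 and -27.4 and the other 2 vehicle arrays 15.2 and -6.1. The mean of 5 seminal vesicle transcripts, from the gland beside the prostate, was 3.72 to 4.82 on the OSU-CG5 arrays, 8.07 on vehicle replicate 2 and 4.10 and 5.26 on the other vehicle arrays. Skeletal muscle markers averaged 4.75 to 5.49 on OSU-CG5 arrays and 5.62 to 6.19 on vehicle arrays, with 8 of 10 lower at an unadjusted p under 0.05, a mark that 8.43% of all genes passed as lower and 5.4% as higher. Macrophage markers averaged 6.36 to 6.68 on OSU-CG5 arrays and 6.83 to 7.39 on vehicle arrays (4 of 6 lower), and endothelial markers 5.48 to 5.59 on OSU-CG5 arrays and 5.69 to 6.01 on vehicle arrays (4 of 5 lower). Of the smooth muscle markers 3 of 6 were lower by this measure, of the fibroblast markers 1 of 5, of the seminal vesicle transcripts 0 of 5 and of the adipocyte markers 0 of 4. The epithelial markers Epcam, Krt8, Krt18 and Cdh1 were present throughout, with means of 10.73 to 10.90 on OSU-CG5 arrays and 10.85 to 11.28 on vehicle arrays, and 0 of 4 passed an unadjusted p under 0.05. Proliferation markers averaged 9.98 to 10.04 on OSU-CG5 arrays and 9.56 to 9.63 on vehicle arrays, with 2 of 3 higher. The part of these differences in the carrier values below was not tested, and in whole tissue fewer cells of a type cannot be told apart from less RNA per cell. All values are log2 RMA values, all differences are OSU-CG5 minus vehicle on that scale, and limma's adjusted p is over all 45037 probe sets.

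No Slc25 carrier passed the test. Of 44 members, 0 had a limma adjusted p under 0.05, against 0% of all genes, and the smallest was 0.168. An unadjusted p under 0.05 was reached by 6 members, or 13.6%, beside 13.8% of all genes. Of these, Slc25a40, Slc25a27, Slc25a37 and Slc25a36 read higher with OSU-CG5 (4 members, background 5.4%), and Slc25a39 and Slc25a42 read lower (2 members, background 8.43%). The family's share was close to that of the array as a whole. Groups did not overlap for 12 members (27.3%, background 22.3%). In 5 of these all OSU-CG5 arrays lay above all vehicle arrays (background 8.1%), and in 7 they lay below (background 14.2%). The median difference was -0.06 over the members and -0.09 over all genes, and 30 members (68.2%) were below 0, beside 65.7% of all genes. Differences ran from -0.54 for Slc25a39 to 0.98 for Slc25a27, and 35 members lay within 0.3 of 0. For 34 members the mean over the arrays was at least log2 6, and 10 members had lower means. All 6 carriers under 0.05 were among those 34, 4 of them higher, and among all genes with such a mean 16.3% passed in either direction and 9.13% higher. Of the 34, 10 had groups that did not overlap, beside 24.3% of genes with such a mean. Below 0 were 23 of the 34, beside 5145 of the 9627 genes with such a mean. The median difference was -0.05 for the 34 and -0.02 for those genes.

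**Figure D1:**
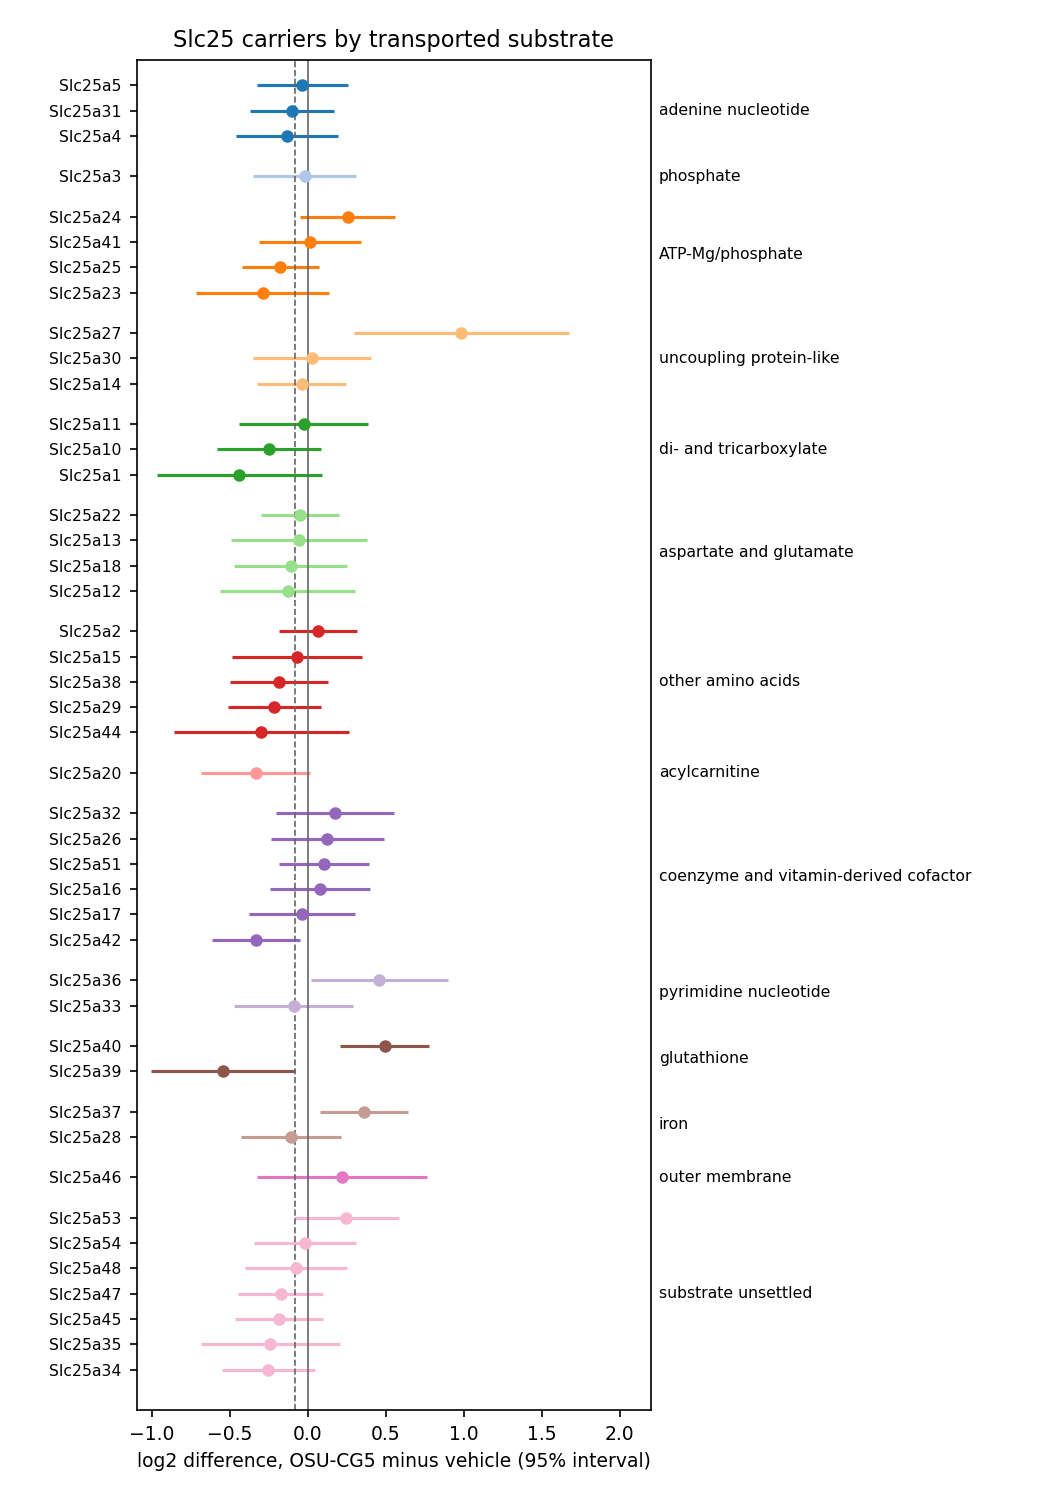
Log2 difference (OSU-CG5 minus vehicle, x axis) with its 95% interval for each of the 44 Slc25 members, grouped and coloured by the solute carried (y axis), with a solid line at 0 and a dashed line at the median of all genes, -0.09. Slc25a27 lies farthest to the right at 0.98 and Slc25a39 farthest to the left at -0.54, and most intervals include 0.

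Both mitochondrial glutathione carriers were among the members under 0.05, and they read in opposite directions. Slc25a39 and its paralog Slc25a40 are known to bring glutathione, the main thiol antioxidant, into mitochondria, where it serves iron-sulfur cluster enzymes and the removal of peroxides. Slc25a40 read 8.16, 8.24 and 8.15 on the OSU-CG5 arrays and 7.84, 7.52 and 7.72 on the vehicle arrays. All 3 OSU-CG5 arrays were above all 3 vehicle arrays, and the OSU-CG5 values lay close together. The means were 8.18 ± 0.05 with OSU-CG5 and 7.69 ± 0.16 with vehicle (SD, n = 3 each), a log2 difference of 0.49 (SE 0.12, 95% interval 0.21 to 0.77) or 1.41-fold, with a limma adjusted p of 0.168. Slc25a39 read 9.91, 9.96 and 10.06 on the OSU-CG5 arrays and 10.09, 10.54 and 10.94 on the vehicle arrays. Here the OSU-CG5 arrays were all below, by a narrow gap to vehicle replicate 1. Means were 9.98 ± 0.08 with OSU-CG5 and 10.52 ± 0.43 with vehicle (SD, n = 3 each), a difference of -0.54 (SE 0.20, 95% interval -1.01 to -0.08) with a limma adjusted p of 0.252.

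Slc25a39 was covered by 5 probe sets, and in each of them the OSU-CG5 arrays lay below the vehicle arrays without overlap. The probe set of next highest mean, 1456176_x_at, read 8.91, 8.94 and 9.05 with OSU-CG5 and 9.28, 9.72 and 9.72 with vehicle, a difference of -0.61 (SE 0.15, limma adjusted p 0.164). The probe set 1447783_x_at differed by -0.66 (SE 0.13, limma adjusted p 0.142), the smallest adjusted p of any Slc25 probe set. For 1440118_at and 1453111_a_at the differences were -0.41 (SE 0.15) and -0.36 (SE 0.13). These probe sets share a gene and samples, so they are repeated readings of 1 gene on the same mice. Of the 5, 3 are of the x_at kind, which can match other transcripts too, and 1440118_at and 1453111_a_at are not. Slc25a40 had a single probe set.

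**Figure D2:**
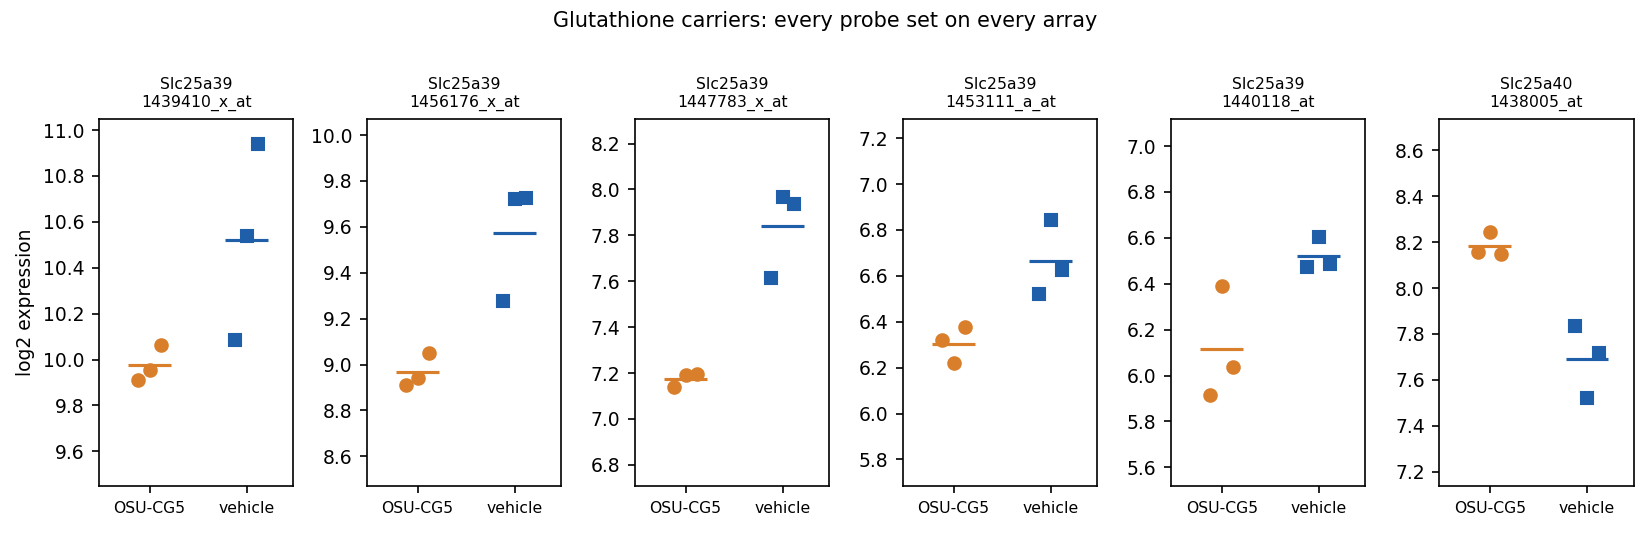
Log2 values of the Slc25a40 probe set and the 5 Slc25a39 probe sets (one panel each), with 1 point per array, OSU-CG5 left of vehicle, and bars at the group means. All OSU-CG5 points are above the vehicle points for Slc25a40 and below them in all 5 Slc25a39 panels.

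The promoters of this pair, which read in opposite directions, were set side by side from RefSeq (GRCm38.p6), 250 bases before to 50 after the annotated start, in the direction of transcription. The Slc25a39 window is chr11:102407468-102407767 on the minus strand and the Slc25a40 window is chr5:8422588-8422887 on the plus strand. Capitals mark the match to an antioxidant response element, written here as TGACNNNGC.
Slc25a39: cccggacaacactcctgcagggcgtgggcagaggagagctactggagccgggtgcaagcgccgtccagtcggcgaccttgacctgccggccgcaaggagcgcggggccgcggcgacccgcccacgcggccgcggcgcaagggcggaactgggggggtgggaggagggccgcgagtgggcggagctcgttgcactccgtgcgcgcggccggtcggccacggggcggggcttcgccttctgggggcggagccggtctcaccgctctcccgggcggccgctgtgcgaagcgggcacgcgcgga
Slc25a40: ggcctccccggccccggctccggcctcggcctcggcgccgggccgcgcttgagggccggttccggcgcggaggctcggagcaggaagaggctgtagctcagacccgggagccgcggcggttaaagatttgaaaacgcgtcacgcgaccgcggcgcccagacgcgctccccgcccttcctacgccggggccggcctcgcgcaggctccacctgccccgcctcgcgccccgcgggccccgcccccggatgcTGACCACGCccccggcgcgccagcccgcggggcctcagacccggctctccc
Both windows were rich in G and C, with 77.3% for Slc25a39 and 79.0% for Slc25a40. The single match in the Slc25a40 window began at the last base before the start, and no match was present in the Slc25a39 window. The search covered both strands and 4 motifs, none of which contains another: the antioxidant response element above, bound by NRF2, an ETS site (CCGGAAG), the CCAAT box and the palindrome known by the name of its factor NRF1. The antioxidant response element letters occurred in 27.9% of 43 member promoters, or 12 of them from 9 of 34 genes, against 12.4% of 32851 promoters in the table. The other shares were 16.3% against 8.86% for the ETS site, 48.8% against 37.4% for CCAAT and 4.65% against 4.6% for the NRF1 palindrome. The members with antioxidant response element letters were Slc25a3, Slc25a5, Slc25a14, Slc25a23, Slc25a25, Slc25a33, Slc25a38, Slc25a40 and Slc25a53, whose differences ran in both directions. Such a match is a run of letters and not a bound site. No promoter was available for 10 members, Slc25a27 and Slc25a37 among them, and some of the 34 genes had several promoters, each counted.

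Among 13 measured genes of iron and glutathione handling, 1 read higher and 1 lower at an unadjusted p under 0.05, beside 5.4% and 8.43% of all genes, which is about what the array as a whole showed. Of the 13, 0 passed the adjusted threshold, and the median difference was 0.03, or 0.16 without vehicle replicate 2. Gclc, the catalytic subunit of the enzyme that limits glutathione synthesis, read 8.64, 8.92 and 9.03 with OSU-CG5 and 8.15, 8.46 and 8.31 with vehicle. The OSU-CG5 arrays were all above, with a difference of 0.56 (SE 0.15) and a limma adjusted p of 0.173. Gpx4, which reduces lipid peroxides with glutathione, read 11.61, 11.42 and 11.33 with OSU-CG5 and 11.80, 11.85 and 11.89 with vehicle. It was below on every OSU-CG5 array, with a difference of -0.40 (SE 0.12, limma adjusted p 0.2). Gss, the second enzyme of glutathione synthesis, differed by -0.20. Gclm, the other subunit of the Gclc enzyme, differed by 0.05 and Gsr by -0.21, each with overlapping groups.

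The iron carriers were split. Slc25a37, or mitoferrin 1, brings iron into mitochondria for heme and iron-sulfur clusters and is best known from red cell precursors. It read 8.53, 8.47 and 8.56 with OSU-CG5 and 8.10, 8.04 and 8.34 with vehicle. All OSU-CG5 arrays were above, at 8.52 ± 0.04 against 8.16 ± 0.16 (SD, n = 3 each), a difference of 0.36 (SE 0.12, limma adjusted p 0.233). Slc25a28, the more widely expressed mitoferrin 2, differed by -0.11 with overlapping groups.

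The largest difference in the family was that of Slc25a27, also called UCP4, an uncoupling protein-like carrier known mainly from brain. It read 6.97, 7.26 and 7.11 with OSU-CG5 and 6.25, 5.38 and 6.76 with vehicle. The OSU-CG5 arrays were close together and all above the vehicle arrays, which were spread over more than 1 log2 unit. Means were 7.11 ± 0.15 with OSU-CG5 and 6.13 ± 0.69 with vehicle (SD, n = 3 each), a difference of 0.98 (SE 0.30, 95% interval 0.29 to 1.68) or 1.98-fold, with a limma adjusted p of 0.203. Its 3 other probe sets, with means of 3.92, 5.07 and 4.14 against 6.62 for this one, differed by 0.31, -0.10 and -0.0014. The mean over its probe sets differed by 0.30. In the same class, Slc25a14 (UCP5) differed by -0.04 and Slc25a30 by 0.03. The 5 probe sets of Slc25a30 differed by between -0.38 and 0.18.

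Slc25a36 and Slc25a33 carry pyrimidine nucleotides, which mitochondria need to copy and transcribe their DNA. Slc25a36 read 11.18, 11.32 and 11.28 with OSU-CG5 and 10.91, 10.36 and 11.13 with vehicle. The OSU-CG5 arrays were all above, at 11.26 ± 0.07 against 10.80 ± 0.40 (SD, n = 3 each), a difference of 0.46 (SE 0.19, limma adjusted p 0.291), and vehicle replicate 2 was the lowest array. Its other probe sets differed by 0.29 and 0.05, and Slc25a33 by -0.09.

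Among 6 carriers of coenzymes and vitamin-derived cofactors the median difference was 0.09, and 4 were above 0. Without vehicle replicate 1 that median was -0.0044. Slc25a42, which imports coenzyme A in exchange for adenine nucleotides, was the 1 member at an unadjusted p under 0.05. It read 6.31, 6.42 and 6.50 with OSU-CG5 and 6.77, 6.87 and 6.59 with vehicle. All OSU-CG5 arrays were below, at 6.41 ± 0.10 against 6.74 ± 0.14 (SD, n = 3 each), a difference of -0.33 (SE 0.12, limma adjusted p 0.253), and its other probe set differed by -0.19. The differences were 0.08 for Slc25a16, which is linked to coenzyme A, -0.04 for Slc25a17, a peroxisomal cofactor carrier, and 0.12 for Slc25a26, the S-adenosylmethionine carrier. Slc25a32, the folate or FAD carrier, differed by 0.17, and Slc25a51, the NAD carrier, by 0.10.

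**Figure D3:**
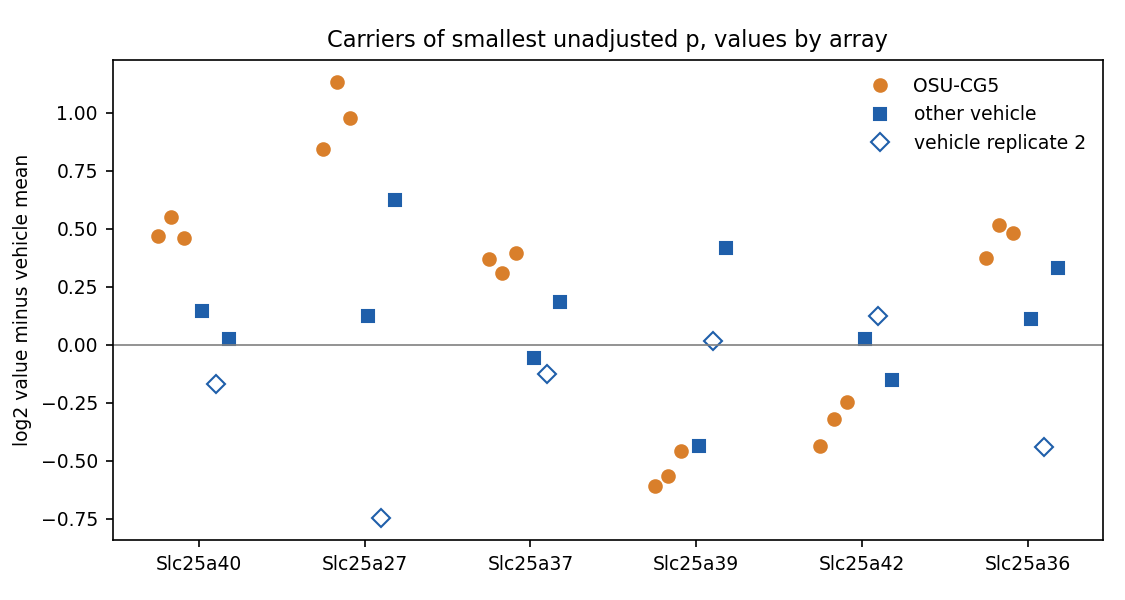
Log2 value on each array minus the gene's vehicle mean (y axis) for the 6 members with an unadjusted p under 0.05 (x axis), with OSU-CG5 points left of vehicle points and vehicle replicate 2 as an open diamond. The OSU-CG5 points do not overlap the vehicle points for any of the 6, and the vehicle points are the more widely spread.

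That difference in spread held for most carriers. The SD was larger among vehicle arrays for 34 members (77.3%), beside 65.3% of all genes, and the median SD of the members was 0.10 with OSU-CG5 and 0.20 with vehicle. Over all probe sets these medians were 0.13 with OSU-CG5 and 0.18 with vehicle.

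The carriers that supply ATP synthesis showed small differences. Adenine nucleotide carriers exchange ADP for ATP, and Slc25a3 brings in the phosphate. Slc25a5, the adenine nucleotide carrier of dividing cells, read 12.37, 12.30 and 12.38 with OSU-CG5 and 12.23, 12.58 and 12.35 with vehicle, a difference of -0.04 (SE 0.13, 95% interval -0.33 to 0.26). Its 8 probe sets differed by between -0.28 and 0.00. For 1438360_x_at (-0.23) and 1438922_x_at (-0.28) all OSU-CG5 arrays lay below all vehicle arrays. Groups overlapped for its other probe sets, and 23.6% of all probe sets had groups without overlap. Slc25a4, the form of heart and skeletal muscle, read 11.24, 10.94 and 10.85 with OSU-CG5 and 11.30, 11.05 and 11.08 with vehicle, a difference of -0.13 (SE 0.14, 95% interval -0.46 to 0.19). The groups overlapped, the 4 probe sets differed by -0.21 to -0.01, and skeletal muscle markers read lower beside it (above), whose part was not tested. Slc25a31, the testis form, was near the bottom of the scale with 2.31, 2.26 and 2.21 with OSU-CG5 and 2.50, 2.33 and 2.26 with vehicle. Slc25a3 read 12.37, 12.24 and 12.31 with OSU-CG5 and 12.06, 12.51 and 12.42 with vehicle, a difference of -0.02 (SE 0.14, 95% interval -0.35 to 0.31), and its other probe set differed by 0.28. The intervals leave room for differences up to those bounds in each direction.

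The ATP-Mg/phosphate carriers set the size of the adenine nucleotide pool in the matrix, and several of them are gated by calcium. Slc25a24 read 10.02, 10.09 and 10.15 with OSU-CG5 and 9.87, 10.00 and 9.62 with vehicle. Its OSU-CG5 arrays were all above, by 0.26 (SE 0.13, limma adjusted p 0.372). Slc25a23 read 6.09, 5.87 and 5.95 with OSU-CG5 and 6.05, 6.68 and 6.04 with vehicle, a difference of -0.29 (SE 0.19) in which vehicle replicate 2 stood alone. Slc25a25 differed by -0.18 with no overlap and Slc25a41 by 0.01.

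All 3 carriers of di- and tricarboxylates were below 0, with a median of -0.25, and 0 passed an unadjusted p under 0.05. Without vehicle replicate 2 the median was -0.11, and Slc25a11 was above 0, at 0.12. Slc25a1 exports citrate to the cytosol, where it feeds fatty acid synthesis. It read 7.34, 7.45 and 7.24 with OSU-CG5 and 7.20, 8.10 and 8.04 with vehicle. Vehicle replicates 2 and 3 were high and vehicle replicate 1 was lower than every OSU-CG5 array, for a difference of -0.44 (SE 0.23, 95% interval -0.97 to 0.09, limma adjusted p 0.377), which was -0.73 without vehicle replicate 1. Slc25a10, the dicarboxylate carrier, read 6.75, 6.72 and 6.62 with OSU-CG5 and 6.80, 7.23 and 6.81 with vehicle. All OSU-CG5 arrays were below, with a difference of -0.25 (SE 0.15, limma adjusted p 0.418). Slc25a11, the oxoglutarate and malate carrier of the malate-aspartate shuttle, differed by -0.03.

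Slc25a20 exchanges acylcarnitines for carnitine and so admits long-chain fatty acids to oxidation. It read 9.02, 8.89 and 8.98 with OSU-CG5 and 9.25, 9.59 and 9.05 with vehicle. The OSU-CG5 arrays were all below, at 8.96 ± 0.07 against 9.30 ± 0.27 (SD, n = 3 each), a difference of -0.34 (SE 0.15, limma adjusted p 0.320). Its other probe set also differed by -0.34.

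The 4 aspartate and glutamate carriers were all below 0, by -0.13 to -0.05, with a median of -0.08. Slc25a12, a calcium-regulated aspartate/glutamate exchanger, read 8.39, 7.93 and 8.00 with OSU-CG5 and 7.89, 8.47 and 8.35 with vehicle, with overlapping groups and a difference of -0.13 (SE 0.19). A second probe set of the gene, 1444489_at, pointed the other way. It read 6.68, 6.71 and 6.35 with OSU-CG5 and 5.90, 5.53 and 6.20 with vehicle, a difference of 0.70 (SE 0.19, limma adjusted p 0.178) with no overlap, and the remaining one, 1436440_at, differed by 0.16. Slc25a13, the related exchanger known from liver, differed by -0.06, and the glutamate carriers Slc25a22 and Slc25a18 by -0.05 and -0.11.

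The 5 carriers of other amino acids had a median of -0.18, and 1 was above 0, but without vehicle replicate 2 the median was -0.014. Slc25a44, the branched-chain amino acid carrier, read 7.43, 6.94 and 7.17 with OSU-CG5 and 7.22, 8.05 and 7.16 with vehicle. Only vehicle replicate 2 stood above the OSU-CG5 range, and the difference was -0.30 (SE 0.24, limma adjusted p 0.558). Slc25a29, a carrier of basic amino acids, differed by -0.22, Slc25a38, a glycine carrier of heme synthesis, by -0.18, and the ornithine carriers Slc25a15 and Slc25a2 by -0.07 and 0.06.

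Slc25a46 is an outer membrane protein that takes part in mitochondrial fusion and lipid handling. It read 9.90, 9.75 and 9.74 with OSU-CG5 and 9.87, 8.97 and 9.90 with vehicle. The groups overlapped and vehicle replicate 2 was far below the rest, and the difference was 0.22 (SE 0.24) over all arrays. Of 7 members listed without a settled substrate, 1 was above 0, and the median was -0.18. Only 2 of the 7 had a mean of at least log2 6. That median was -0.23 with repeated quantile normalization and -0.10 without OSU-CG5 replicate 1. Slc25a34 read 5.50, 5.73 and 5.78 with OSU-CG5 and 6.01, 5.98 and 5.78 with vehicle, a difference of -0.25 (SE 0.13) in which the groups were separated by less than the printed digits. Slc25a53 read 6.37, 5.97 and 5.92 with OSU-CG5 and 5.80, 5.77 and 5.95 with vehicle, a difference of 0.24 (SE 0.15), and its other probe set differed by -0.04. Slc25a35 differed by -0.24, Slc25a45 by -0.19, Slc25a47 by -0.18, Slc25a48 by -0.08 and Slc25a54 by -0.02.

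Probe sets of the same gene did not always share a sign, and many of the other probe sets were at low levels. Of 23 members with several probe sets, 14 had all of one sign, and in 16 the probe set of next highest mean had the sign of the first. Of the other 7, Slc25a3, Slc25a26, Slc25a27 and Slc25a53 had that probe set at a mean between 4.78 and 5.21, and Slc25a5 at a difference of 0.00057. Among the 49 other probe sets 30 had a mean of at least log2 6. The 49 other probe sets had a median difference of -0.10, with 3 higher and 6 lower at an unadjusted p under 0.05, beside 9.63% and 6.8% of all 45037 probe sets. Slc25a39 was the member with the most probe sets lower at an unadjusted p under 0.05. Slc25a12 and Slc25a27 were those in which the probe sets differed most in size. For Slc25a51 another probe set differed by 0.57 (SE 0.22, limma adjusted p 0.272) beside 0.10 for the first. The remaining 21 members had a single probe set. Groups did not overlap in 9 of the 49 (background 23.6%). In 4 members (Slc25a5, Slc25a26, Slc25a39 and Slc25a47) the probe set used was of the s_at or x_at kind.

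**Figure D4:**
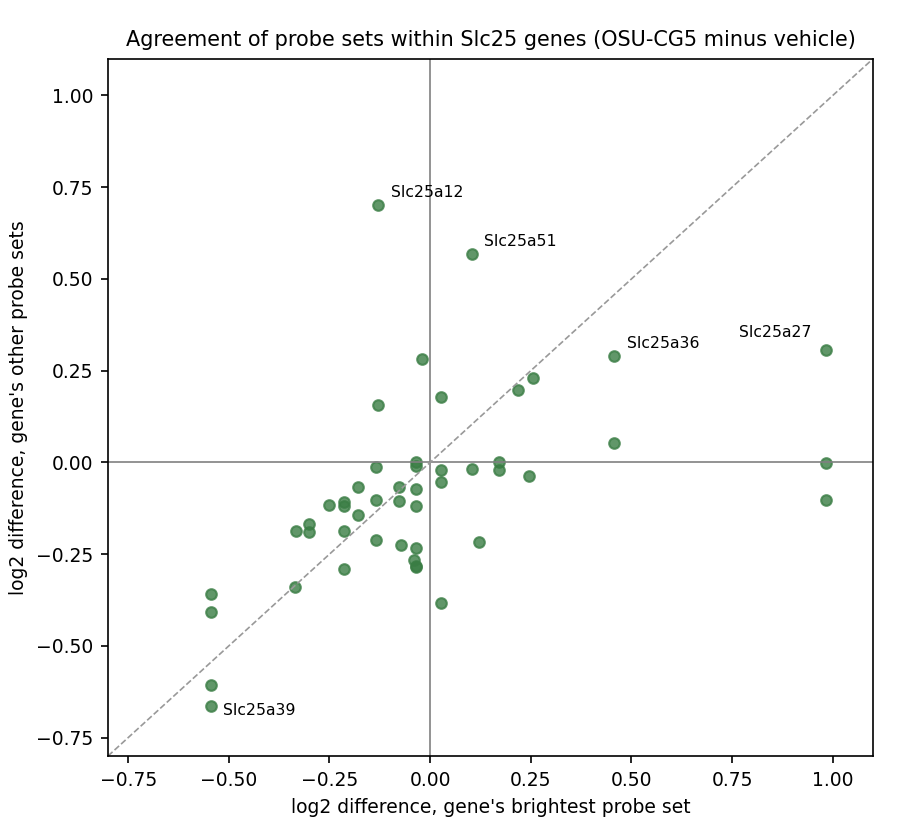
Log2 difference (OSU-CG5 minus vehicle) of each of the 49 other probe sets (y axis) against that of the gene's probe set of highest mean (x axis), for the 23 members with several, with the line of equality dashed. The Slc25a39 points lie at the lower left, near the line, and the highest Slc25a12 point lies above 0 at 0.70 although its x value is -0.13.

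Vehicle replicate 2, the array that stood apart, was the highest of the 6 for 17 members (38.6%), beside 38.4% of all genes, and the lowest for 7 (15.9%). Without it 0 members passed the adjusted threshold, beside 0.176% of all genes. At an unadjusted p under 0.05 there were 4 higher and 1 lower, while 12.7% of all genes passed. The glutathione carriers kept their differences, at 0.41 for Slc25a40 (limma adjusted p 0.163) and -0.54 for Slc25a39 (limma adjusted p 0.280). Slc25a37 differed by 0.29 and Slc25a42 by -0.27. Slc25a27 came to 0.61 (limma adjusted p 0.132) and Slc25a36 to 0.24 (limma adjusted p 0.429). Slc25a24, at 0.34, joined the higher members, and Slc25a36 and Slc25a42 left those under 0.05. Several differences in metabolic carriers were much smaller without this array: -0.28 for Slc25a1, -0.19 for Slc25a20, -0.11 for Slc25a10, -0.08 for Slc25a23 and -0.01 for Slc25a44. Slc25a46 changed sign, to -0.09, as did Slc25a3, Slc25a5, Slc25a11, Slc25a13, Slc25a15, Slc25a33 and Slc25a41, which were near 0 over all arrays. Slc25a30 moved to 0.19.

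**Figure D5:**
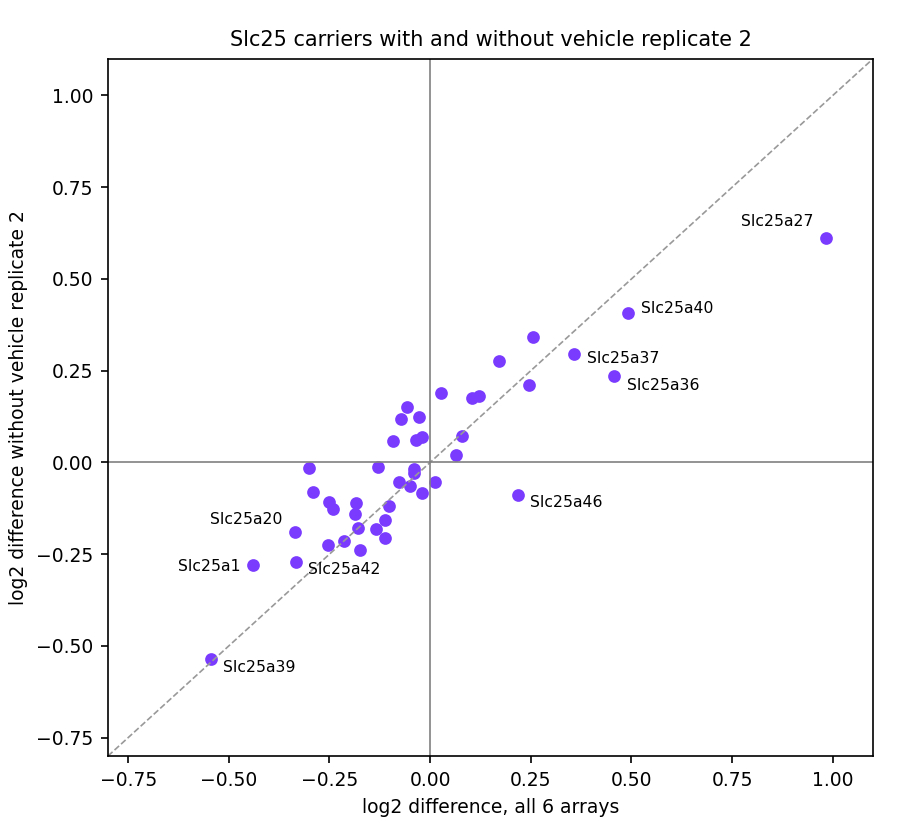
Log2 difference of each member without vehicle replicate 2 (y axis) against its difference over all 6 arrays (x axis), with the line of equality dashed. Slc25a39 and Slc25a40 lie near the line, and Slc25a27 lies below it at 0.61 against 0.98.

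Genes of mitochondrial protein import and other genes related to the carriers showed no adjusted call either. The import machinery had 12 measured genes with a median of -0.04, and 0 passed an unadjusted p under 0.05. Timm9, a small chaperone of carrier import, differed by 0.29 (SE 0.13, limma adjusted p 0.317), and Timm50 and Tomm40, of the inner and outer membrane translocases, by -0.23 and -0.24. Of 4 carrier relatives under other symbols 0 passed, with -0.25 for Mtch1, 0.15 for Mtch2 and -0.15 for Ucp3. Of 4 measured genes of the pyruvate carrier and the porins 0 passed, with 0.16 for Mpc1, -0.13 for Vdac1 and -0.10 for Vdac3.

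Among 12 shuttle enzymes 1 read higher at an unadjusted p under 0.05, close to the 5.4% of all genes, and the median was -0.06 (0.04 without vehicle replicate 2). The cytosolic and mitochondrial malate dehydrogenases, which work on either side of the oxoglutarate and aspartate carriers, read in opposite directions. Mdh1 read 12.91, 12.82 and 12.72 with OSU-CG5 and 12.53, 12.45 and 12.37 with vehicle, all above, a difference of 0.37 (SE 0.12, limma adjusted p 0.209). Mdh2 read 11.90, 11.87 and 11.80 with OSU-CG5 and 12.01, 12.49 and 12.07 with vehicle, all below, a difference of -0.33 (limma adjusted p 0.318), which was -0.18 without vehicle replicate 2. Crat, which makes short acylcarnitines, differed by -0.33. Of 8 genes used as a gauge of mitochondrial content, 1 read higher, beside 5.4% of all genes, and the median was 0.04, or 0.19 without vehicle replicate 2. The differences were 0.32 for the matrix chaperone Hspd1 (limma adjusted p 0.256), 0.21 for the mitochondrial DNA factor Tfam and -0.36 for the inner membrane scaffold Phb2, which came to -0.10 with vehicle replicate 2 left out and -0.56 with vehicle replicate 3 left out.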

How the data were processed

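Gene expression was measured in dorsal and lateral prostate of 6 mice, and the authors deposited 1 log2 value per probe set and array, made with RMA per the submitters' processing notes. RMA normalizes the arrays together, which can hide a shift shared by most transcripts, and the software is not given in the sources used here. Groups follow the tissue source label, although some treated samples have another compound number in their description. Replicate numbers only name the mice. The 64 Affymetrix controls were left out, which left 45037 probe sets, and 0 columns of other samples were present. Genes were named where the platform annotation gave a single symbol.

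Differences were tested with limma 3.58.1 in R 4.3.3 (lmFit, eBayes), as OSU-CG5 minus vehicle on unfiltered values. Benjamini-Hochberg adjustment ran over all probe sets, at 0.05. The procedure was tested on simulated data. SE is the moderated standard error. Counts at an unadjusted p under 0.05 are descriptions, to be read against the share of all genes that passed it. The carriers, solute classes and gene lists were chosen with earlier results of these data known. Values on every array are given for the 12 members of smallest p, the member of largest difference in each class, and the adenine nucleotide and phosphate carriers. Of each related list 3 genes of smallest p are named, and Gclm and Gsr are named besides. Some listed genes were not analysed here. The 3' minus 5' difference of the Affymetrix Gapdh probe sets was 2.89 ± 0.16 with OSU-CG5 and 2.39 ± 0.32 with vehicle (SD, n = 3 each, two-sided exact permutation p 0.2, smallest possible 0.1), and that of Actb 3.03 ± 0.07 and 2.99 ± 0.13. Precision is limited by 3 arrays per group.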

Additional observations from a re-analysis of the deposited data

How the results depend on the processing

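No paired analysis was possible because the replicate numbers only name the mice. The 16 alternatives were other scalings, a minimum mean, other variance settings, array weights, other probe set rules and each array left out. Changes in counts of members stand beside the share of all genes under the same setting. Repeated quantile normalization gave 6 lower members and 2 higher ones under an unadjusted 0.05, beside 15.0% of all genes, with 11 below without overlap (17.0%) and a median of -0.13 (median log2 difference, all genes, -0.091). No moderation gave 2 lower and 2 higher (11.7% of all genes in either direction). The mean of all probe sets of a gene gave 1 lower and 3 higher (15.7% in either direction), with 3 above (8.24%) and 4 below (15.4%) without overlap. Smaller changes were 6 above (8.33%) and 5 below (12.7%) without overlap with arrays centred on their median. Cyclic loess gave 3 lower and 3 higher (11.9% in either direction), with 4 above (8.10%) and 6 below (12.2%) without overlap. With array weights 2 were lower and 5 higher (18.4% in either direction). A minimum mean of log2 6 gave 2 lower and 3 higher, with 5 below without overlap. Of all genes with such a mean, 13.6% passed in either direction and 10.9% were below. With each array left out in turn, adjusted calls numbered 0 to 1, lower members 0 to 4, higher members 2 to 4, members above without overlap 5 to 7 and below 7 to 12, and the median was -0.10 to -0.04. The shares of all genes also moved and lay between 7.43% and 18.0% at an unadjusted p under 0.05, and without overlap between 9.84% and 14.2% above and between 18.0% and 26.9% below, against 8.1% above and 14.2% below with every array. The 1 call was Slc25a27 without vehicle replicate 3, at 1.30 with a limma adjusted p of 0.0488. In that setting 0.5002% of all genes passed the adjusted threshold, against 0% with every array, so calls also rose over the array as a whole. Without vehicle replicate 2 that share was 0.176%. The adjusted p of Slc25a27 over the settings reached 0.461. Array weights gave 0 members and 0.665% of all genes, and among the related genes Gclc at 0.69 (limma adjusted p 0.0391).

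Slc25a40 kept an unadjusted p under 0.05 in 16 of the 16 alternatives (0.40 to 0.56), Slc25a27 in 15 (0.30 to 1.30), Slc25a37 in 13 (0.27 to 0.45), Slc25a39 in 11 (-0.76 to -0.34), Slc25a42 in 11 (-0.41 to -0.26) and Slc25a36 in 6 (0.24 to 0.62). Of these, Slc25a40 and Slc25a37 had a single probe set, not of the s_at or x_at kind, so the probe set rules could not change their differences. Over all members 26 kept their sign throughout, and 18, each with a difference of at most 0.22 in size, changed it somewhere. The minimum mean, the variance settings and a fit on 1 probe set per gene left differences as they were, so no sign could change there. For members with a single probe set the other probe set rules could not change a sign either. Repeated quantile normalization turned Slc25a30 to -0.028 and Slc25a54 to 0.046, and cyclic loess turned Slc25a30 to -0.013, Slc25a48 to 0.0057 and Slc25a54 to 0.058. Array weights turned Slc25a3 to 0.063, Slc25a5 to 0.033, Slc25a11 to 0.069, Slc25a13 to 0.0077, Slc25a15 to 0.036 and Slc25a41 to -0.060. The mean of all probe sets turned Slc25a3 to 0.13, Slc25a12 to 0.24, Slc25a26 to -0.047, Slc25a30 to -0.051 and Phb2 to 0.0082, and leaving out s_at and x_at probe sets turned Slc25a26 to -0.22 and Phb2 to 0.10. With each array left out, values crossing 0 spanned -0.16 to 0.068 for Slc25a3, -0.11 to 0.061 for Slc25a5, -0.19 to 0.12 for Slc25a11, -0.17 to 0.15 for Slc25a13, -0.13 to 0.031 for Slc25a14 and -0.22 to 0.12 for Slc25a15. They spanned -0.0062 to 0.21 for Slc25a16, -0.19 to 0.047 for Slc25a17, -0.23 to 0.0045 for Slc25a18, -0.035 to 0.22 for Slc25a26, -0.20 to 0.022 for Slc25a28 and -0.097 to 0.19 for Slc25a30. The spans were -0.19 to 0.058 for Slc25a33, -0.054 to 0.14 for Slc25a41, -0.088 to 0.38 for Slc25a46, -0.20 to 0.023 for Slc25a48, -0.14 to 0.070 for Slc25a54, -0.016 to 0.25 for Mpc1 and -0.25 to 0.021 for Vdac1. The cause of these changes was not tested.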
